A study of Mus musculus with 22 samples.

Results

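Translation initiation and elongation factors were examined as the genes of the count table whose Ensembl identifier belongs, in the mouse annotation, to a protein-coding gene with a symbol that begins with Eif or Eef followed by a digit. The rule used names only and no measured value. It gave 67 members among the 39056 genes of the table, and 63 of them had enough reads to be tested. Eef1akmt4 also bears such a name and was not analysed here. RNA came from the prefrontal cortex (PFC) of 11 male transgenic mice of 8 to 12 weeks on a C57BL/6J background. Every mouse, Control included, carried the tetO-EGFP/Rpl10a and CaMKIIα-tTA transgenes, so that the ribosomal protein Rpl10a bears a green fluorescent tag in cells in which the CaMKIIα promoter is active, mainly excitatory pyramidal neurons. Mice were injected i.p. 2 times per day on 4 days, with normal saline in Control (n = 3) or with ethanol to 2 g/kg per day in EtOH (n = 4). The EtOH + ABT-888 mice (n = 4) received the same ethanol and, on day 4 only, 25 mg/kg of ABT-888, an inhibitor of Poly (ADP-ribose) polymerase, and all tissue was taken 2 h after the last injection. Each mouse gave a TRAP library, of RNA pulled down with tagged ribosomes, and a total-RNA library of the same homogenate before the pull-down. TRAP reads therefore reflect RNA ribosomal engagement (RE) in the tagged cells, and total-RNA reflects all cells of the tissue.

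Initiation begins when the eIF4F complex, made of the cap-binding protein eIF4E, the scaffold eIF4G and the helicase eIF4A, prepares the mRNA, and a small ribosomal subunit loaded with eIF1, eIF1A, eIF3, eIF5 and the eIF2 complex scans to the start codon. eIF2 brings the initiator tRNA, is recharged with GTP by eIF2B, and is shut off when a stress kinase phosphorylates its alpha subunit. During elongation eEF1A delivers aminoacyl-tRNA and eEF2 moves the ribosome along, until eEF2 kinase phosphorylates and inhibits it. In neurons both steps are regulated by activity and by the kinase complex TORC1, and many mRNAs for elongation factors begin with a run of pyrimidines at the 5′ end, the 5′TOP motif, through which TORC1 regulates their translation.

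TRAP libraries held 6570957 to 22002618 counted reads and total-RNA libraries 22132534 to 32421392, so low factors were measured less precisely in TRAP. Values below are CPM, which are counts divided by library size after TMM scaling. Adjusted p-values were obtained by the quasi-likelihood test of edgeR, corrected by the Benjamini-Hochberg method over all 14072 genes tested, and calls were made below 0.05. In these libraries marker transcripts did not bear out the pyramidal label. Of 6 pyramidal markers, 0 were called higher in TRAP than in total-RNA in any of the 3 treatments. From quantitative PCR in preliminary TRAP experiments, the study reports higher Egfp and CamKIIα and lower astrocyte and microglial markers in TRAP than in total-RNA. Camk2a did not pass the test between Control TRAP and Control total-RNA (log2 fold change -0.17), the other 5 of 6 pyramidal markers were lower in TRAP, such as Slc17a7 at -1.13 and Neurod6 at -2.23, and the interneuron markers split, with Gad1, Gad2 and Slc32a1 higher by 1.24, 1.12 and 2.52, Pvalb lower (-2.36) and Sst and Vip not passing. All 24 markers of astrocytes, oligodendrocytes, microglia and endothelium or pericytes were lower in Control TRAP. Summed oligodendrocyte markers stood at 723 CPM in the TRAP library of mouse 2 (EtOH), and at 857 and 1458 CPM in those of mice 3 and 11 (EtOH + ABT-888), against 318 to 461 CPM in the other 8 TRAP libraries. The same 3 libraries had the highest sums of astrocyte markers (207, 174 and 149.9 CPM, against 43.7 to 119 CPM) and of endothelial and pericyte markers (33.8, 32.2 and 26.6 CPM, against 5.85 to 23.4 CPM), and mice 2 and 3 those of microglial markers (31.8 and 38.2 CPM, against 4.54 to 26.2 CPM in the other 9). Counts of members called in comparisons that use these 3 libraries are therefore also given without them.

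The elongation factors Eef1a1, Eef1a2 and Eef2 were the most abundant members per kilobase of exon in Control TRAP. Eef1a1, the broadly expressed eEF1A, reached 417 CPM per kb in Control TRAP, Eef1a2, the form of mature neurons and muscle, 399 CPM per kb, and Eef2, the translocase, 259 CPM per kb. Eif1, which keeps scanning ribosomes from starting at poor start codons, followed at 173 CPM per kb, then the helicase Eif4a2 at 90.00 CPM per kb and Eif4g2, an eIF4G relative without the eIF4E-binding part, at 81.4 CPM per kb. The lowest tested members in Control TRAP were the inducible eIF4E repressor Eif4ebp1 at 0.399 CPM per kb and the double-stranded RNA-activated eIF2 kinase Eif2ak2 at 0.271 CPM per kb. The 4 members left untested were low: Eif3j2 lay between 0.437 and 1.44 CPM in the 22 libraries, and Eif4e1b, Eif4ebp3 and Eef1akmt3 stayed at or below 0.204 CPM. Reads shared between Eif3j1 and its copy Eif3j2, or between members and their processed pseudogenes, could have been split by the counting, and overlapping genes make the counts of Eif5b, Eif3d, Eif3j1 and Eif4e3 uncertain.

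**Figure D1:**
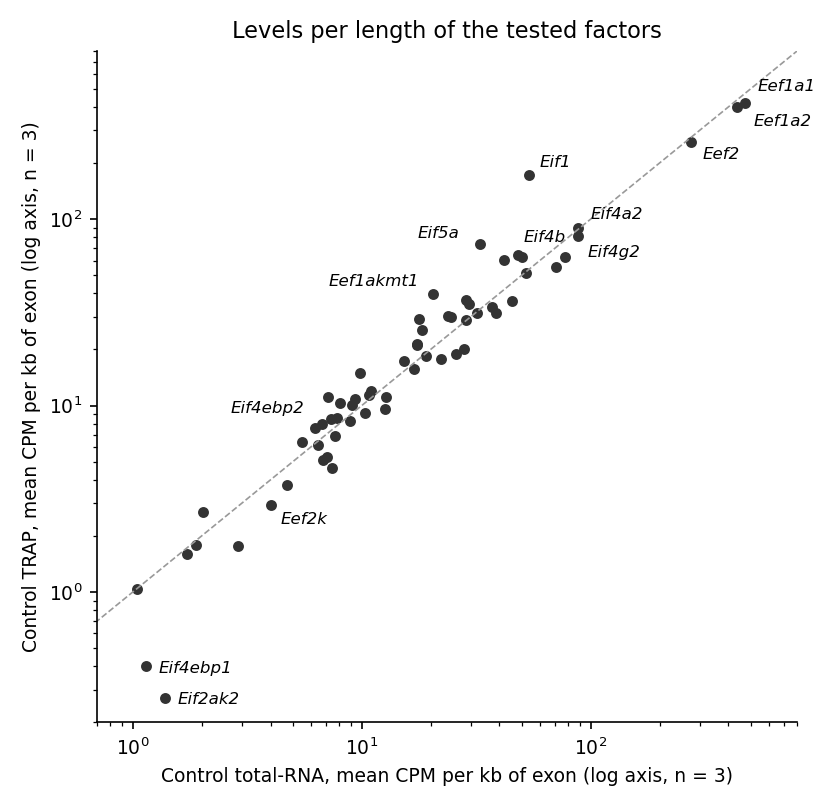
Mean normalised CPM per kilobase of exon of the 63 tested members in Control total-RNA (x axis) and Control TRAP (y axis), both on log axes, with 1 point per gene and the dashed line marking equal levels (n = 3 mice). Eef1a1, Eef1a2 and Eef2 sit at the upper end, Eif1 and Eif5a lie above the line, and Eif4ebp1 and Eif2ak2 lie below it.

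Paralogs were used unequally, as ratios of CPM per kb within each library show. In Control TRAP the Eef1a1 to Eef1a2 ratio was 1.05 ± 0.115 (SD, n = 3) and in Control total-RNA 1.09 ± 0.0847 (SD, n = 3), so both forms were close to equal. In EtOH the same ratio was 1.73 ± 0.626 in TRAP and 1.48 ± 0.156 in total-RNA (SD, n = 4), with overlap with Control in TRAP and none in total-RNA. Eif5a exceeded its vertebrate paralog Eif5a2 by a ratio of 3.99 ± 0.788 in Control TRAP but only 1.72 ± 0.134 in Control total-RNA, and Eif1 exceeded Eif1b by 3.38 ± 0.465 in Control TRAP while the same 2 transcripts were near parity in Control total-RNA at 1.04 ± 0.147 (SD, n = 3 each). Among the helicases, Eif4a1 stood at 0.409 ± 0.0275 of the Eif4a2 level in Control TRAP. Of the eIF4E repressors, the brain form Eif4ebp2 dominated, with Eif4ebp1 at 0.0461 ± 0.0117 of its level in Control TRAP and 0.157 ± 0.0278 in Control total-RNA (SD, n = 3 each). These ratios are descriptions without a test.

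TRAP was compared with total-RNA to ask which factor mRNAs were engaged with tagged ribosomes more or less than their share of tissue RNA. In Control, 18 members were higher and 14 lower in TRAP, together 50.8% of the 63, below the 59.9% of all genes tested that were called. In EtOH 19 were higher and 11 lower, 47.6% against 50.7% of all genes, and in EtOH + ABT-888 9 were higher and 5 lower, 22.2% against 41.0%. These fits do not pair the 2 libraries of a mouse. With the mouse as a block the members called were 55.6%, 55.6% and 41.3% (26 in EtOH + ABT-888, 17 higher and 9 lower), against 62.5%, 58.8% and 54.3% of all genes. The share of members called was below that of all genes in both kinds of fit, and what follows concerns individual transcripts in the unpaired fit. Without the TRAP libraries of mice 2, 3 and 11, 27 members were called in EtOH and 16 in EtOH + ABT-888, against 49.0% and 38.2% of all genes. The counts also moved with single libraries, to 20 in Control without the total-RNA library of mouse 1 (52.5% of all genes), to 19 in EtOH without that of mouse 9 (43.6%), and to 8, 8 and 9 in EtOH + ABT-888 without that of mouse 6, 11 or 3 (33.4%, 32.3% and 35.6%). A single model over the 22 libraries called 14 in Control and 25 in EtOH + ABT-888, against 42.8% and 51.6% of all genes. The block added calls and lost none: in Control Eef1b2 higher and Eef1a1 and Eif4e3 lower, in EtOH Eif2d, Eif3i, Eif3k and Eif4a3 higher and Eif2s3x lower, and in EtOH + ABT-888 Eef1akmt2, Eif1ad, Eif2b4, Eif2b5, Eif3b, Eif3f, Eif3m and Eif4a3 higher and Eif1ax, Eif2s3x, Eif4g3 and Eif5a2 lower. Calls in the same direction in all 3 treatments were made for 10 members, 7 higher (Eif1, Eif5a, Eef1akmt1, Eif4b, Eif4h, Eif3g and Eef1g) and 3 lower (Eif2ak2, Eif4ebp1 and Eef2k). Because bulk RNA was measured, fewer cells of a type and less RNA per cell cannot be told apart in any of these differences.

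Eif1 was the member most raised in TRAP, with 405, 340.0 and 341 CPM in the 3 Control TRAP libraries and 122, 114 and 104 CPM in total-RNA of the same mice. In EtOH it stood at 438, 456, 413 and 275 CPM in TRAP against 128, 168, 131 and 112 CPM in total-RNA, and the TRAP and total-RNA libraries did not overlap in any treatment. Its log2 fold change was 1.66 ± 0.10 in Control (SE, edgeR adjusted p = 2.98e-07), 1.53 ± 0.18 in EtOH (adjusted p = 3.83e-05) and 1.54 ± 0.18 in EtOH + ABT-888 (adjusted p = 7.32e-05). Eif5a, the hypusinated factor that relieves stalled ribosomes, was at 165, 208 and 153 CPM in Control TRAP and 77.9, 77.4 and 78.5 CPM in Control total-RNA, a log2 fold change of 1.15 ± 0.11 (adjusted p = 6.41e-06). Its paralog Eif5a2 did not pass in Control (-0.06 ± 0.09, adjusted p = 0.58) and was lower in TRAP in EtOH (-0.49 ± 0.15, adjusted p = 0.0194). Eef1akmt1, a lysine methyltransferase that modifies eEF1A, gave 38.2, 35.8 and 38.6 CPM in Control TRAP and 19.98, 16.96 and 21.1 CPM in Control total-RNA (0.94 ± 0.12, adjusted p = 3.41e-05). For both genes the Control libraries of each kind were clearly apart.

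Other members higher in TRAP came from several roles, among them eIF2B, eIF3, start codon selection, the eIF4 group and the eEF1 group. Eif2b5, the catalytic subunit of eIF2B, was higher by 0.68 ± 0.09 in Control (adjusted p = 5.65e-05) and 0.52 ± 0.14 in EtOH (adjusted p = 0.00725), and its value of 0.38 ± 0.18 in EtOH + ABT-888 did not pass (adjusted p = 0.121). Of the 5 eIF2B subunits, 2 were called higher in Control, 4 in EtOH and 0 in EtOH + ABT-888, where 1 had an unadjusted p below 0.05 and where Eif2b4 and Eif2b5 were called higher with the mouse as a block, beside the 59.9%, 50.7% and 41.0% of all genes given above. Eif1ad, an eIF1A-related gene, was higher by 0.63 ± 0.12 in Control and 0.69 ± 0.18 in EtOH, and Eef1b2, the exchange factor that recharges eEF1A, by 0.67 ± 0.18 in EtOH and 0.66 ± 0.23 in EtOH + ABT-888 (adjusted p = 0.00926 and 0.0402). The helicase Eif4a1 was higher in Control and EtOH by 0.34 and 0.50 on the log2 scale, while Eif4a2 gave 0.01 in Control and was lower in EtOH (-0.44 ± 0.15, adjusted p = 0.0303). Eif4a3, a helicase of the exon junction complex, was higher by 0.27 in Control (adjusted p = 0.0323), and the cap-binding protein Eif4e by 0.28 in Control (adjusted p = 0.0216).

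**Figure D2:**
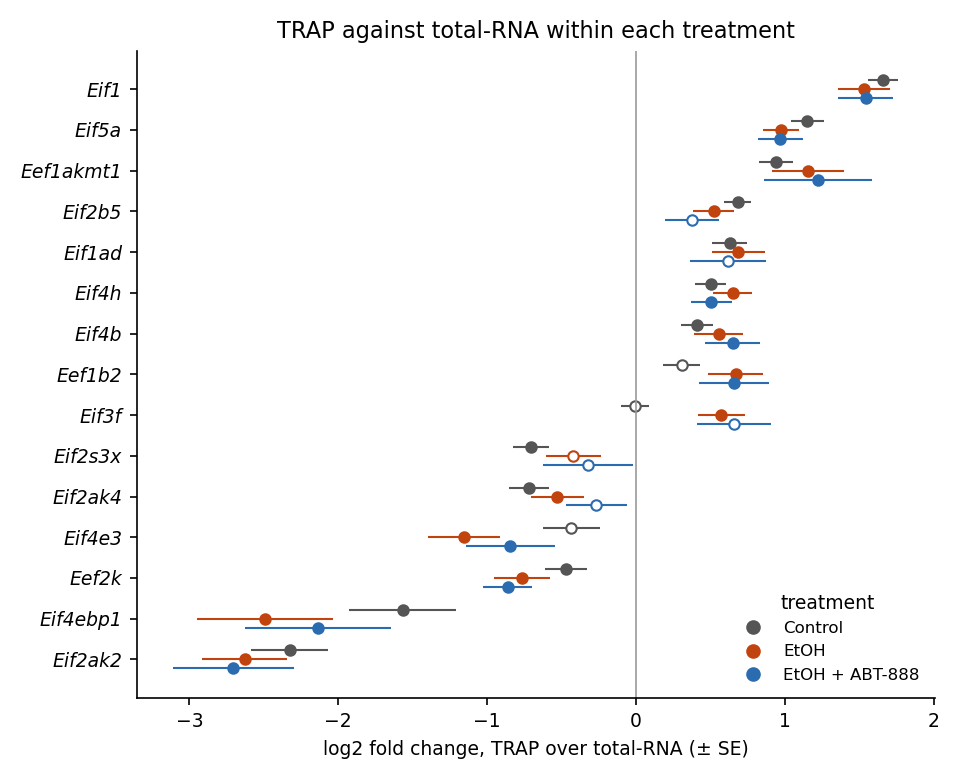
Log2 fold change of TRAP over total-RNA with its SE for 15 members (y axis), in Control (grey, n = 3 mice), EtOH (orange, n = 4) and EtOH + ABT-888 (blue, n = 4), with filled points called by edgeR below an adjusted p of 0.05 and open points not. Eif1 lies between 1.53 and 1.66 in the 3 treatments, and Eif2ak2 between -2.71 and -2.33.

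Among members lower in TRAP were 2 of the 4 eIF2 alpha kinases. Eif2ak2, also called PKR, gave 1.07, 1.27 and 1.82 CPM in Control TRAP and 7.69, 7.39 and 6.21 CPM in Control total-RNA, a log2 fold change of -2.33 ± 0.26 (adjusted p = 1.62e-05), with no overlap. It was also lower in EtOH (-2.63 ± 0.29, adjusted p = 2.70e-05) and in EtOH + ABT-888 (-2.71 ± 0.41, adjusted p = 3.29e-04). Eif2ak4, the kinase GCN2 that senses uncharged tRNA, was lower in Control by -0.72 ± 0.14 (adjusted p = 8.14e-04) and in EtOH by -0.53 ± 0.18 (adjusted p = 0.0255). The heme-regulated kinase Eif2ak1 and the endoplasmic reticulum kinase Eif2ak3 did not pass in any of the 3 treatments, with values from -0.19 to 0.17. Eif4ebp1 was at 1.07, 1.05 and 0.512 CPM in Control TRAP and 2.12, 2.73 and 2.69 CPM in Control total-RNA (-1.57 ± 0.36, adjusted p = 0.00288), whereas Eif4ebp2 gave 0.19 ± 0.11 (adjusted p = 0.17). Eef2k, which encodes eEF2 kinase, was lower in TRAP by -0.47 ± 0.14 in Control, -0.77 ± 0.19 in EtOH and -0.86 ± 0.17 in EtOH + ABT-888 (adjusted p = 0.012, 0.00515 and 0.0017). The weakly expressed cap-binding relative Eif4e3 was lower in EtOH (-1.15 ± 0.24) and EtOH + ABT-888 (-0.84 ± 0.30). Eif2s3x, a gamma subunit of eIF2 encoded on the X chromosome, was lower in Control (-0.70 ± 0.12, adjusted p = 4.17e-04). The 24 glial and vascular markers were lower in Control TRAP as well, by a median of -2.80 to -3.36 for each of the 4 lists, and their part in these differences was not tested.

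The scaffold and eIF3 subunits behaved unevenly. Eif4g1, the main scaffold, was lower in TRAP by -0.30 in Control (adjusted p = 0.0413), Eif4g3 by -0.46 in Control and -0.47 in EtOH, and Eif4g2 by -0.48 ± 0.11 in EtOH alone among the 3 treatments (adjusted p = 0.00339, against 0.222 in Control and 0.236 in EtOH + ABT-888). Of the 13 tested eIF3 subunits, 3 were called higher and 5 lower in Control, 4 higher and 0 lower in EtOH, and 1 higher and 0 lower in EtOH + ABT-888. Blocking by mouse gave 6 higher in EtOH and 4 in EtOH + ABT-888. The unpaired calls are 61.5%, 30.8% and 7.69% of the 13, beside 59.9%, 50.7% and 41.0% of all genes. The median log2 fold change of the 13 was -0.13, 0.18 and 0.09 in that order, beside 0.02, 0.03 and 0.05 over all genes. Eef1a1 and Eef1a2 were not called in any treatment in the unpaired fit, Eef2 was higher in EtOH alone (0.39 ± 0.13, adjusted p = 0.0219), and Eif2s1, the alpha subunit of eIF2 that the stress kinases phosphorylate, was lower in EtOH alone (-0.38 ± 0.14, adjusted p = 0.0437). The interaction given further on tests whether these values differ between EtOH and Control, and between EtOH + ABT-888 and Control. Whether they differ between EtOH and EtOH + ABT-888 was not tested.

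EtOH was compared with Control in TRAP to ask which factor mRNAs shifted on tagged ribosomes. Eif4b, which stimulates the eIF4A helicase, and Eif3f, an eIF3 subunit, rose, and Eif4g2 fell. These 3 of 63 members are 4.76%, near the 5.24% of all genes tested that were called. At an unadjusted p below 0.05, 15 members had higher and 5 lower values, 20 of 63, against 23.1% of all genes. The median log2 fold change of the 63 was 0.19, beside 0.02 over all genes.

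Eif4b (ENSMUSG00000058655.8, chr15:102073773-102097173, mm10) gave 289.9, 328 and 247 CPM in Control TRAP and 443, 661, 434 and 415 CPM in EtOH TRAP. All 4 EtOH libraries were above all 3 Control libraries, with mouse 5 the highest by a wide margin. The rise was 1.72-fold, a log2 fold change of 0.78 ± 0.19 (SE, edgeR adjusted p = 0.0354). Eif3f (ENSMUSG00000031029.6, chr7:108934417-108942951) gave 89.8, 77.7 and 81.5 CPM in Control TRAP and 106, 177, 158 and 158 CPM in EtOH TRAP. The groups did not overlap, and mouse 2 was the lowest EtOH library. Its rise was 1.84-fold, or 0.88 ± 0.19 on the log2 scale (adjusted p = 0.0222). Eif4g2 (ENSMUSG00000005610.17, chr7:111067750-111083030) gave 846, 859 and 779.7 CPM in Control TRAP and 523, 455, 512 and 491 CPM in EtOH TRAP, a log2 fold change of -0.72 ± 0.12 (adjusted p = 0.00894). Its groups were far apart and tight. The calls depended on single libraries, above all the 3 Control ones: 0 members were called without the TRAP library of Control mouse 1 or mouse 4 (0.668% and 0.597% of all genes), 1 without Control mouse 7 (0.796%), 2 without EtOH mouse 5 (2.64%), 6 without EtOH mouse 2 (4.31%) and 8 without EtOH mouse 9 (11.0%). Mouse 2 is the only one of mice 2, 3 and 11 in this comparison. exactTest and DESeq2 called 6 and 8 members, against 9.75% and 10.8% of all genes.

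Most of the other eIF3 subunits lay above 0 without passing. Of the 13 tested, 12 had a higher mean in EtOH TRAP, 7 of them at an unadjusted p below 0.05, with a median log2 fold change of 0.41. Over all genes tested, 7251 of 14072 had a higher mean, 23.1% had an unadjusted p below 0.05 in either direction, and the median was 0.02. The 13 were measured in the same libraries. Eif3e gave 0.70 ± 0.24 (adjusted p = 0.113), Eif3l 0.56 ± 0.16 (adjusted p = 0.0616) and Eif3g 0.49 ± 0.15 (adjusted p = 0.0751). Both gamma subunits of eIF2 had higher means, Eif2s3y at 0.78 ± 0.23 and Eif2s3x at 0.71 ± 0.23 (adjusted p = 0.0684 and 0.0902). Eef1a1 varied widely on tagged ribosomes, with 1154, 955 and 1012 CPM in Control and 927, 1733, 1998 and 1621 CPM in EtOH. Only EtOH mouse 2 lay below the Control libraries, and the log2 fold change of 0.62 ± 0.22 did not pass (adjusted p = 0.125). Among the other members fixed for naming, Eef2 gave 0.33 ± 0.14, Eef2k 0.43 ± 0.21, Eif4e -0.30 ± 0.20, Eif2s1 -0.38 ± 0.17 and Eif4ebp1 -0.68 ± 0.71, with adjusted p-values from 0.182 to 0.599. The 4 eIF2 alpha kinases lay between -0.09 and 0.17, and Eif4a1, Eif4a2, Eif4a3, Eif4g1, Eif4g3, Eif4ebp2, Eif2b5, Eif5a, Eif5a2 and Eef1a2 between -0.30 and 0.30, none of which passed. Of the 6 pyramidal markers in the same comparison, Neurod6 fell (-1.68) and no other was called, with Camk2a at 0.47 and Slc17a7 at -0.77, while the sum of the list lay at 2379 to 2643 CPM in Control and 2494 to 3269 CPM in EtOH TRAP. Of the 6 microglial markers P2ry12 fell (-3.46), with sums of 12.7 to 26.2 and 4.60 to 31.8 CPM, and none of the interneuron, astrocyte, oligodendrocyte and vascular markers was called. The part of cell makeup in the values of the factors was not tested.

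**Figure D3:**
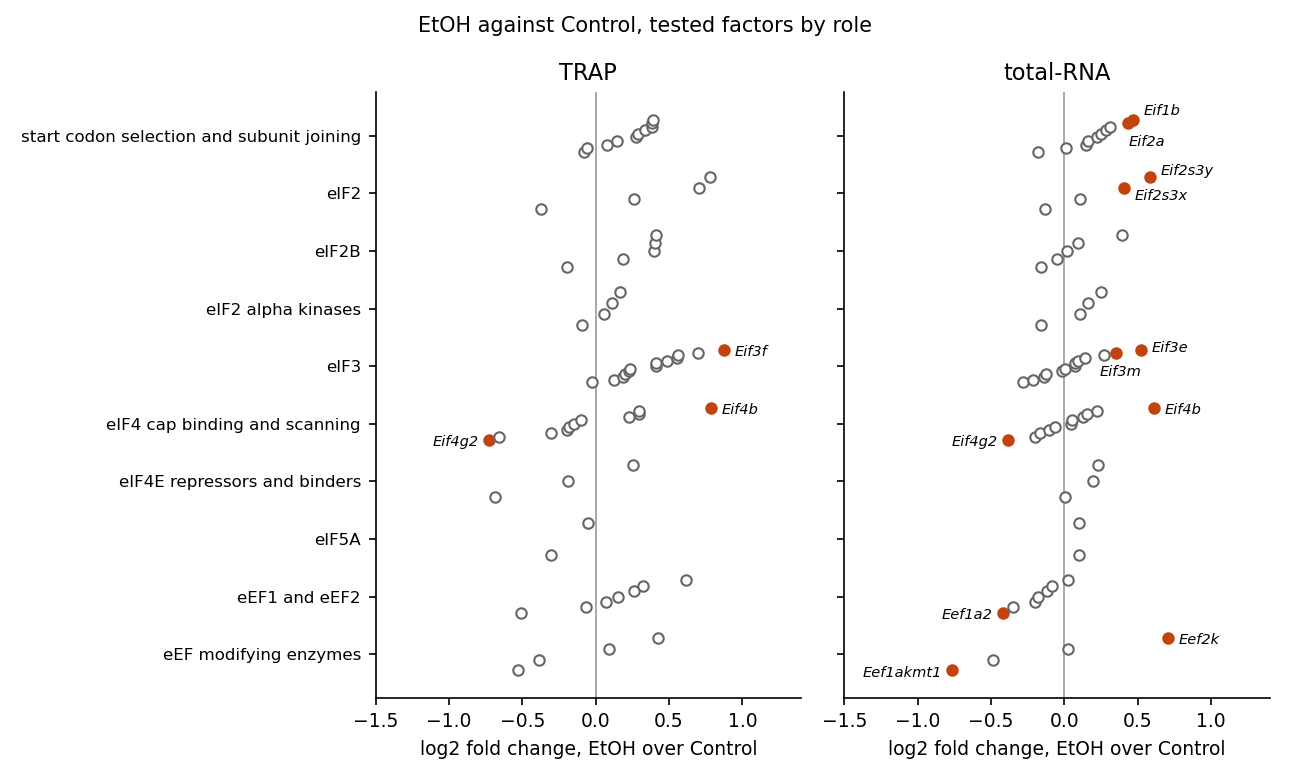
Log2 fold change of EtOH over Control (x axis) for the 63 tested members, grouped by role (y axis), in TRAP (left) and total-RNA (right), with n = 3 Control and 4 EtOH mice. Filled orange points are called by edgeR below an adjusted p of 0.05 and named: 3 in TRAP and 11 in total-RNA, with Eif4b above 0 and Eif4g2 below 0 in both.

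In total-RNA, EtOH was set against Control in the same mice to see changes in factor mRNA in the whole tissue. Eif4b again rose and Eif4g2 again fell, joined by rises of Eef2k, Eif3e, Eif3m, Eif1b, Eif2a, Eif2s3x and Eif2s3y and falls of Eef1a2 and Eef1akmt1. These 11 members, 8 higher and 3 lower, are 17.5% of the 63, against 17.6% of all genes tested. A further 5 members had an unadjusted p below 0.05 without passing, which makes 16, against 33.9% of all genes. The 2 members called in both TRAP and total-RNA were Eif4b and Eif4g2, and the TRAP and total-RNA libraries compared came from the same mice.

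Eif4b stood at 224, 215 and 204 CPM in Control and 369, 361, 292 and 289 CPM in EtOH total-RNA, a 1.53-fold rise (0.61 ± 0.11, adjusted p = 0.00362). Eef2k (ENSMUSG00000035064.17, chr7:120842831-120907450) stood at 34.03, 29.9 and 25.01 CPM in Control and 47.9, 54.4, 41.7 and 49.7 CPM in EtOH, a 1.64-fold rise (0.71 ± 0.13, adjusted p = 0.00426). Neither gene's groups overlapped, and these 2 were called in each of the 7 fits that left out a library. Eif4g2 gave 851, 899 and 926 CPM in Control and 682, 631, 701 and 712 CPM in EtOH (-0.39 ± 0.09, adjusted p = 0.0135). Eef1a2 gave 958, 933 and 834 CPM in Control and 666, 623, 757 and 670.4 CPM in EtOH (-0.42 ± 0.10, adjusted p = 0.0145), so that the neuronal form of eEF1A fell while Eef1a1 stayed near 0 at 0.02 ± 0.10 without passing. Eef1akmt1 fell as well, from 19.98, 16.96 and 21.1 CPM in Control to 11.5, 7.28, 13.4 and 13.5 CPM in EtOH (-0.76 ± 0.20, adjusted p = 0.0196). Each of these falls separated the groups fully.

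Of eIF3, 2 subunits rose. Eif3e was at 90.6, 73.3 and 91.04 CPM in Control and 122, 111, 140.5 and 116 CPM in EtOH, 1.44-fold (0.53 ± 0.12, adjusted p = 0.0114), and Eif3m at 46.4, 43.8 and 51.9 CPM and 57.2, 62.6, 63.6 and 58.5 CPM, 1.28-fold (adjusted p = 0.0365). Eif3f had 85.6, 82.1 and 79.6 CPM in Control and 96.9, 108, 101 and 92.1 CPM in EtOH, without overlap, yet its log2 fold change of 0.27 ± 0.10 did not pass (adjusted p = 0.0712). Over the 13 subunits 8 had higher and 5 lower means, with a median of 0.07.

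The other rises were of Eif1b and Eif2a, of the group for start codon selection and subunit joining (2 of 10 called), and of both gamma subunits of eIF2 (2 of 4). These counts stand beside 17.6% of all genes called, and with so few members they describe genes rather than roles. Eif1b, the paralog of Eif1, gave 60.5, 52.8 and 63.5 CPM in Control and 89.2, 71.9, 86.5 and 78.2 CPM in EtOH (0.47 ± 0.11, adjusted p = 0.0157), and Eif2a, which can bring initiator tRNA independently of eIF2, gave 45.9, 44.4 and 52.9 CPM and 60.99, 65.8, 69.2 and 62.1 CPM (0.44 ± 0.11, adjusted p = 0.0165). Of the eIF2 gamma pair, the X-linked Eif2s3x was at 28.8, 26.9 and 29.6 CPM in Control and 39.4, 39.1, 39.1 and 32.8 CPM in EtOH (0.41 ± 0.11, adjusted p = 0.0284), and the Y-linked Eif2s3y at 23.02, 14.4 and 21.4 CPM and 26.4, 25.3, 36.5 and 29.2 CPM (0.58 ± 0.18, adjusted p = 0.0403). The groups did not overlap for any of these 4 genes. The alpha subunit Eif2s1 (-0.13 ± 0.11), Eif2b5 (-0.05 ± 0.11) and the 4 eIF2 alpha kinases (-0.16 to 0.25) did not pass. Nor did Eef2 (-0.18 ± 0.10), Eif4e (-0.06 ± 0.10), Eif4ebp1 (0.23 ± 0.24), Eif4ebp2, Eif4a1, Eif4a2, Eif4a3, Eif4g1, Eif4g3, Eif5a and Eif5a2, the last 8 of which lay between -0.20 and 0.22.

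The total-RNA calls rested on the Control libraries. Without that of mouse 1, 4 or 7 there were 4, 3 or 6 calls, against 6.7%, 6.24% and 8.71% of all genes, without that of EtOH mouse 9 there were 16 (25.7%), and a single model over all 22 libraries gave 0 calls (1.07% of all genes), with adjusted p-values for Eif4b of 0.109 and for Eef2k of 0.0570. In the same comparison 5 of 6 microglial markers fell, and summed microglial markers lay at 225 to 238 CPM in Control, 77.1 to 112 CPM in EtOH and 61.9 to 180 CPM in EtOH + ABT-888 total-RNA. All 6 had reads in each of the 11 total-RNA libraries, and the part of cell makeup in the changes of the factors was not tested.

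**Figure D4:**
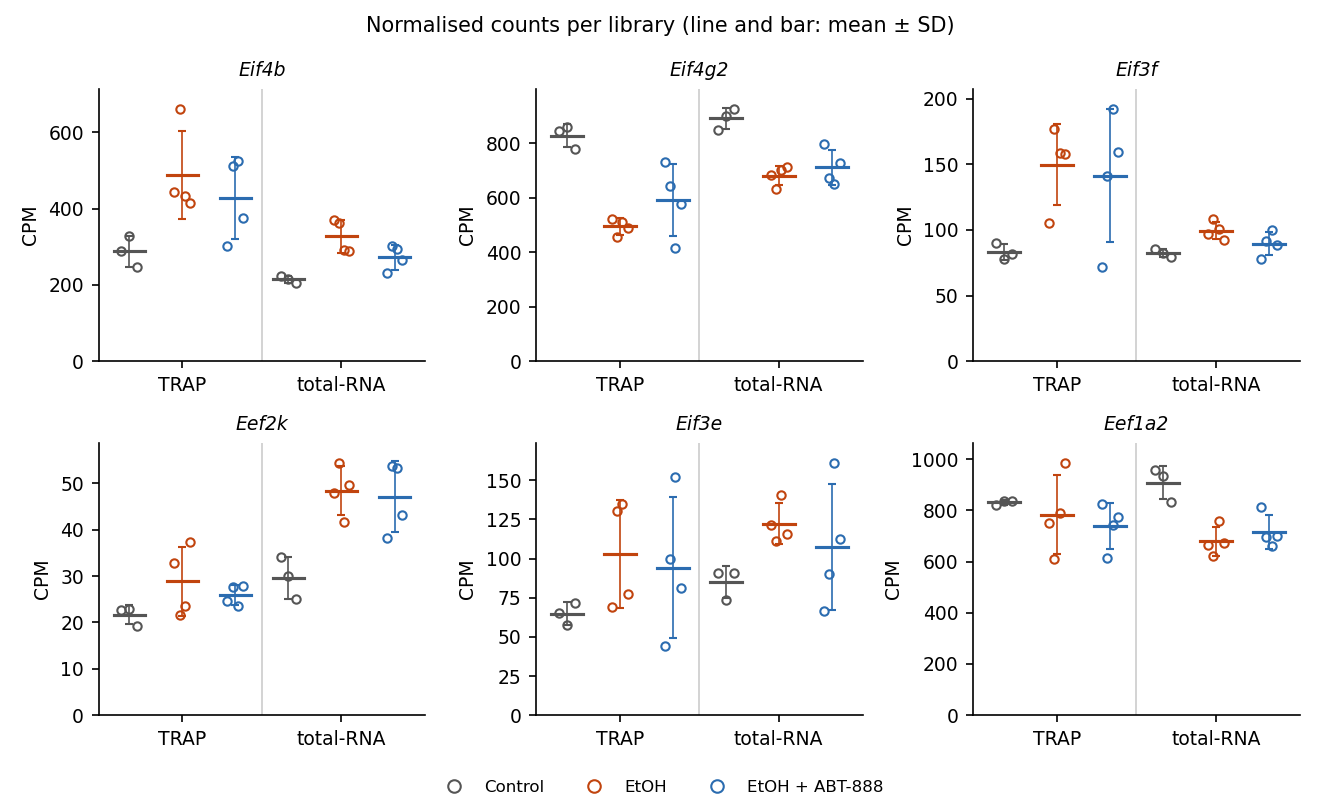
Normalised CPM (y axis, from 0) of Eif4b, Eif4g2, Eif3f, Eef2k, Eif3e and Eef1a2 in each of the 22 libraries (open points), with the mean and SD of each group, TRAP on the left and total-RNA on the right of each panel (Control grey, n = 3, EtOH orange, n = 4, EtOH + ABT-888 blue, n = 4). In total-RNA the EtOH points of Eif4b and Eef2k lie above, and those of Eif4g2 and Eef1a2 below, all Control points.

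EtOH + ABT-888 was compared with the same Control libraries. In TRAP edgeR called 0 members, with 0.476% of all genes called, and exactTest and DESeq2 also called 0. At an unadjusted p below 0.05 there were 4 higher and 3 lower members, 7 of 63, against 12.1% of all genes. Eif3f gave 72.00, 141, 192 and 159 CPM, Eif4b 302, 511, 524 and 375 CPM and Eif4g2 730.3, 644, 414 and 579 CPM in the 4 EtOH + ABT-888 TRAP libraries. Eif3f and Eif4b overlapped with Control through mouse 3 alone, and Eif4g2 lay below every Control library. Their log2 fold changes were 0.78 ± 0.27, 0.59 ± 0.21 and -0.47 ± 0.18 (adjusted p = 0.255, 0.271 and 0.317), beside 0.88, 0.78 and -0.72 for EtOH, with the Control libraries shared by both comparisons. Without the TRAP libraries of mice 2, 3 and 11, 3 members were called higher, against 2.29% of all genes called, among them Eif3f and Eif4b with adjusted p of 0.0319 and 0.0357, and without mouse 3 alone 1 was, against 2.65%. The first of these fits, chosen after seeing the data, keeps only mice 6 and 10 of the EtOH + ABT-888 group. Both fits leave out mouse 3, through which Eif3f and Eif4b overlapped with Control.

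In total-RNA of EtOH + ABT-888 against Control, edgeR likewise called 0 members, with 0.263% of all genes called, while exactTest and DESeq2 each called 1, Eef2k, against 3.87% and 4.41% of all genes. Unadjusted, 9 members were below 0.05, 5 higher and 4 lower, against 15.9% of all genes. Eef2k gave 38.3, 53.8, 53.3 and 43.1 CPM and lay above every Control library (0.67 ± 0.16, adjusted p = 0.103, against 0.71 in EtOH). Eif4g2 gave 796, 674, 651 and 727 CPM and Eef1a2 813, 697, 659.9 and 698 CPM, each below every Control library, with log2 fold changes of -0.32 ± 0.10 and -0.34 ± 0.10 (adjusted p = 0.163 and 0.16). Eif4b at 230.0, 302, 293 and 265 CPM lay above Control by 0.35 ± 0.11 (adjusted p = 0.188). Without the total-RNA library of mouse 3, 4 members were called, 2 in each direction, against 6.18% of all genes.

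The direct comparison of EtOH + ABT-888 with EtOH, which alone tests the inhibitor on top of ethanol, called 0 members in TRAP and 0 in total-RNA by edgeR, exactTest and DESeq2, and 0.0% and 0.0% of all genes by edgeR. Without the TRAP libraries of mice 2, 3 and 11, 0 were called in TRAP as well. At an unadjusted p below 0.05 there was 1 member in TRAP, against 0.966% of all genes, and 0 in total-RNA, against 1.91%. The 1 was Eif2b3, an eIF2B subunit, with 15.8, 15.8, 15.3 and 14.1 CPM in EtOH and 7.87, 5.10, 12.1 and 13.02 CPM in EtOH + ABT-888 TRAP (-0.67 ± 0.29, unadjusted p = 0.036, adjusted p = 1). Eif4g2 gave 0.25 ± 0.17 in TRAP and 0.06 ± 0.10 in total-RNA, and Eif4b -0.19 ± 0.22 and -0.27 ± 0.13. No difference between EtOH + ABT-888 and EtOH was thus detected for any factor, and a missed threshold does not show that levels were equal.

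The interaction of treatment with RNA pool over all 22 libraries asked whether the effect in TRAP differed from that in total-RNA. For EtOH it called 0 members, with 0.0213% of all genes, and 0 by the likelihood ratio test, by DESeq2, with each mouse as a block and without the TRAP libraries of mice 2, 3 and 11 (0.0711% of all genes). Unadjusted, 2 members were below 0.05, against 4.87% of all genes: Eef2, with a difference of 0.49 ± 0.19 between the 2 log2 fold changes (unadjusted p = 0.0178, adjusted p = 0.944), and Eif3c (0.36 ± 0.15, adjusted p = 1). For EtOH + ABT-888 it also called 0 by each of these, with 0.0% of all genes, or 0.0142% without those libraries, and 3 unadjusted, Eif3a, Eif3f and Eif3c, against 3.38% of all genes. The rises of Eif4b and Eif3f in TRAP were therefore not shown to differ from their values in total-RNA. The difference was 0.58 ± 0.30 for Eif3f and 0.15 ± 0.26 for Eif4b (adjusted p = 1 and 1).

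Genes that act on the factors but are not members were counted from lists by pathway. Of 18 genes of the TORC1 and S6 kinase pathway, 5 rose and 1 fell with EtOH in total-RNA, and 1 rose and 1 fell in TRAP. These are 33.3% and 11.1% of the 18, beside 17.6% and 5.24% of all genes. Ddit4, an inhibitor of TORC1 that stress induces, averaged 16.4 ± 1.47 CPM in Control and 56.6 ± 10.7 CPM in EtOH total-RNA (SD, n = 3 and 4), a log2 fold change of 1.79 ± 0.15 (adjusted p = 3.36e-05). It rose in EtOH TRAP by 0.79 ± 0.18 (adjusted p = 0.0316) and in EtOH + ABT-888 total-RNA by 1.53 ± 0.20 (adjusted p = 0.0346). In the latter comparison 0 of all genes were called without the library of Control mouse 1, 4 or 7, or of EtOH + ABT-888 mouse 6 or 11. Its relative Ddit4l went the other way, from 14.1 ± 2.35 CPM in Control to 2.29 ± 0.625 CPM in EtOH TRAP (SD, n = 3 and 4), a log2 fold change of -2.60 ± 0.29 (adjusted p = 0.00226), and by -1.81 ± 0.17 in EtOH and -1.45 ± 0.19 in EtOH + ABT-888 total-RNA (adjusted p = 7.70e-05 and 0.0346). The other 4 rises in EtOH total-RNA were of Pdcd4, a repressor of eIF4A, at 0.45 ± 0.10, the eIF4E kinase Mknk2 at 0.78 ± 0.13, and the stress-inducible Sesn1 and Sesn2 at 0.81 ± 0.11 and 0.66 ± 0.18.

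Of 10 tested genes of the integrated stress response, the program set off by eIF2 phosphorylation, 4 rose with EtOH in total-RNA and 1 in TRAP, beside the same 17.6% and 5.24% of all genes. They were Ppp1r15a and Ppp1r15b, which direct the dephosphorylation of eIF2 alpha, at 1.00 ± 0.16 and 0.54 ± 0.10 in total-RNA, with Sesn2 and Ddit4, which the TORC1 list also holds. Atf4 itself gave -0.37 ± 0.17 in total-RNA and -0.15 ± 0.21 in TRAP without passing (adjusted p = 0.149 and 0.703). Of 13 genes for poly(A) binding, reinitiation, termination and recycling, Paip2b, an inhibitor of poly(A)-binding protein, rose in EtOH total-RNA (0.54 ± 0.12), and none was called in TRAP. The selenocysteine elongation factor Eefsec fell in total-RNA (-0.51 ± 0.14), as did Tufm, the mitochondrial counterpart of eEF1A (-1.08 ± 0.17), the only calls among 3 and 6 genes of their lists. With EtOH + ABT-888 against Control, edgeR called Ddit4 and Ddit4l alone among all these genes in total-RNA and none in TRAP. Neither call held without the total-RNA library of Control mouse 1, 4 or 7, or of EtOH + ABT-888 mouse 6 or 11.

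Known 5′TOP mRNAs among the members were viewed as a group that was listed with these results known, which makes it a description only. The 9 were Eef1a1, Eef1b2, Eef1d, Eef1g, Eef2, Eif3e, Eif3f, Eif3h and Eif4b. All 9 had a higher mean in EtOH than in Control TRAP, 2 of them called (Eif3f and Eif4b), with a median log2 fold change of 0.56, beside 0.16 for the other 54 members and 0.02 for all genes. Of 77 tested genes of cytosolic ribosomal proteins, whose mRNAs are also 5′TOP mRNAs, 75 had a higher mean and 1 was called, with a median of 0.51. In total-RNA 4 of the 9 were higher, with Eif3e and Eif4b called, and 5 lower. The median there was -0.01, beside 0.03 for the ribosomal protein genes. The median log2 ratio of TRAP over total-RNA for the 9 was -0.09, -0.15 and 0.03 in the 3 Control mice, 0.06, 0.44, 0.57 and 0.58 in EtOH mice 2, 5, 8 and 9, and -0.12, 0.28, 0.84 and 0.50 in EtOH + ABT-888 mice 3, 6, 10 and 11. The highest Control value was below all 4 EtOH values, and EtOH + ABT-888 mouse 3 was within the Control range. Over the other 54 members the same median lay between -0.04 and 0.19 in all 11 mice. Mice 2 and 3, with the lowest values of their groups, are among the 3 with high glial and vascular markers in TRAP, while mouse 11 is not low, and what part this has was not tested. None of the 9 passed the interaction.

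**Figure D5:**
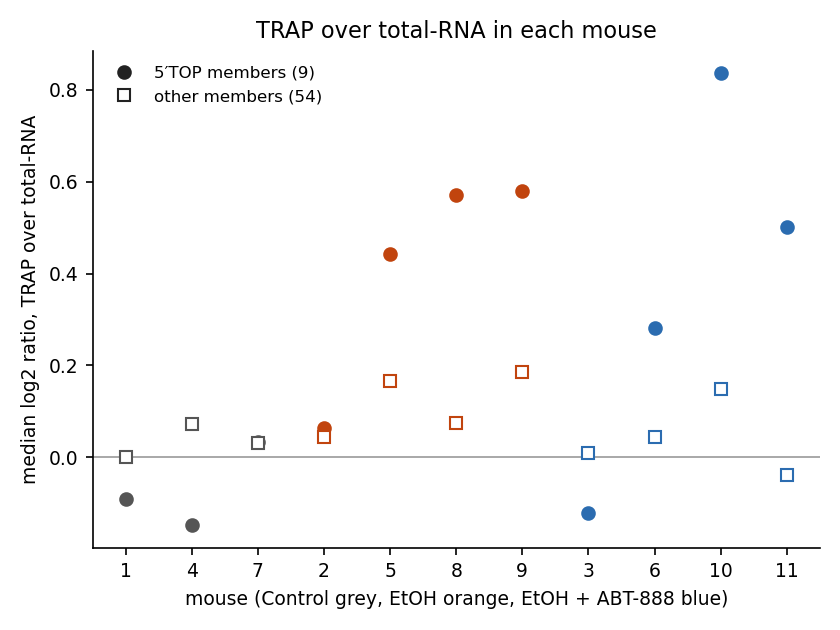
Median log2 ratio of TRAP over total-RNA (y axis) in each of the 11 mice (x axis), for 9 members known as 5′TOP mRNAs (filled circles) and the other 54 tested members (open squares), with Control in grey, EtOH in orange and EtOH + ABT-888 in blue. The circles reach 0.84 in mouse 10 and lie near 0 in the Control mice and in mice 2 and 3, while the squares stay between -0.04 and 0.19.

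To show which of the changed members carry a pyrimidine-rich start, 30 bases around the RefSeq transcript start (10 before and 20 from the start on, GRCm38.p6, sense strand of the gene) were read for a run of at least 8 bases that are each C or T. RefSeq promoters matched 51 of the 67 members, and Eif4g2, Eif3e and Eef1akmt1 were among those without. Such a run was found in 11.24% of 32851 promoters of all genes and in 12 of 66 promoters of the members, which belong to 10 members. Capitals mark the run. Of the 10 members with the run, Eif2ak4, Eif2b2, Eif2b5, Eif3l, Eif4e and Eif4enif1 were not called between EtOH and Control in either pool. The others are Eif3f, which rose in TRAP, Eif2s3x and Eif2s3y, which rose in total-RNA, and the abundant Eef1a1, called in neither.
Eif3f (chr7:108934405-108934434, plus strand): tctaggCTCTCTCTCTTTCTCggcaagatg
Eif2s3x (chrX:94212632-94212661, minus strand): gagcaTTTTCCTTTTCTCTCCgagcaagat
Eif2s3y (chrY:1010585-1010614, plus strand): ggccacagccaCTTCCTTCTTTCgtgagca
Eef1a1 (chr9:78481705-78481734, minus strand): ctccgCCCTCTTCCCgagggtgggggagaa
In Eif3f the run is 15 bases long and in Eif2s3x 16, and in both it spans the annotated start. Eif4b and Eef1a2, which rose and fell in total-RNA, hold no such run in this window, which says only that these letters are not there.
Eif4b (chr15:102073763-102073792, plus strand): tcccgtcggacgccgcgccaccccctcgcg
Eef1a2 (chr2:181156996-181157025, minus strand): cctggtctgcgttctcgctcactggttctc
Of the remaining members that rose in total-RNA and have a RefSeq promoter, Eif3m, Eif1b, Eif2a and Eef2k, at each of its 3 annotated starts, have none either. Of the 9 members listed as 5′TOP mRNAs, Eef1a1 and Eif3f hold the run, and in Eef1b2, Eef2 and Eif4b, whose windows were also read, none was found. The Eif4b window holds a run of C and T just short of 8 bases. The Eef2 window ends in such bases, and a run that goes on past its edge would be missed.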

How the data were processed

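PFC RNA of 11 mice was sequenced as 22 libraries, a TRAP and a total-RNA library per mouse, after rRNA depletion with paired reads of 50 bases. The authors aligned reads to mm10 with STAR, counted them per Ensembl gene with featureCounts, and deposited raw counts without normalisation. Tool versions, the strand setting and the handling of multi-mapping reads are not given in the sources used here, so reads of near-identical copies and of overlapping genes may have been split or lost. All 22 columns were used (0 left out). Groups came from the treatment and title labels, and the animal number marks the mouse.

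Gene names, positions and exon lengths came from GENCODE M21 (38872 of 39056 genes found, 184 not), and promoter sequences from RefSeq GRCm38.p6. As in the study, genes needed at least 500 counts in all and a count in at least 3 libraries, which kept 14072 and removed 24984. In R 4.3.3, edgeR 4.0.16 (limma 3.58.1) was run with TMM factors and the quasi-likelihood test, with Benjamini-Hochberg adjustment over all genes tested and only the libraries of the groups compared, while the interaction used all 22. Ratios of TRAP over total-RNA per mouse used log2 with a pseudocount of 1 CPM. The test was tested on simulated data. Alternatives were exactTest, DESeq2 1.42.0, RLE factors, no filter, filterByExpr, a single model over 22 libraries, the mouse as a block, an adjusted p below 0.01, the likelihood ratio test for the interaction, leaving out each library, and, chosen after seeing the data, leaving out the TRAP libraries of mice 2, 3 and 11. TRAP and total-RNA of a mouse deviated together from their group means in every mouse (r = 0.142 to 0.698 across genes, which are not independent replicates), and they come from the same animal.

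The members, lists and tests were chosen with earlier results of these data known. Named genes were every member called between treatments, in TRAP against total-RNA the 4 largest calls in each direction, a set of 22 core factors whatever their values, and every gene of the pathway lists called between treatments other than in EtOH total-RNA. Members and list genes named outside this rule were chosen after their values were seen. The pull-down was not repeated per mouse, so p-values measure the spread between libraries. Differences between mice, pull-downs and library preparations cannot be told apart in that spread.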

Additional observations from a re-analysis of the deposited data

Results flagged for a closer look

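Among 34 members examined in the groups of 4 mice, 5 of 136 sets of 4 values held a library that stood far from the other 3. The critical value used is set so that chance passes it in about 1 in 20 sets. Eif4b was at 661 CPM in the EtOH TRAP library of mouse 5 and between 415 and 443 CPM in the other 3. Without that library its log2 fold change over Control in TRAP was 0.59 and did not pass (adjusted p = 0.0554), with the other 3 still above every Control library. Eif4e3 was at 12.4 CPM in the EtOH TRAP library of mouse 9, against 6.19 to 6.73 CPM. Eif4g1 was at 337 CPM in the EtOH + ABT-888 TRAP library of mouse 3, against 175 to 188 CPM, and that library also had high glial and vascular markers, whose part was not tested. In EtOH total-RNA, Eif2s3x was at 32.8 CPM in mouse 9, against 39.1 to 39.4 CPM, and Eif4ebp1 at 2.17 CPM in mouse 5, against 3.10 to 3.26 CPM.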

How the results depend on the processing

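Of the 32, 30, 14, 3 and 11 members called in the 5 comparisons with calls, 0 reversed direction under any alternative run. In TRAP against total-RNA, an adjusted p below 0.01 left 18 calls in Control, 18 in EtOH and 5 in EtOH + ABT-888 (47.2%, 36.2% and 27.1% of all genes), and the single model over 22 libraries gave 14 in Control and 25 in EtOH + ABT-888. A replicate block for each animal, which pairs its libraries, gave 35 calls in Control (19 higher, 16 lower), 35 in EtOH (23 and 12), 26 in EtOH + ABT-888 (17 and 9) and 0 in both interactions. For EtOH against Control in TRAP, exactTest gave 6 calls, DESeq2 8, no filter 9 (6.13% of all genes) and leaving out the TRAP libraries of mice 2, 3 and 11, of which only that of mouse 2 enters here, gave 6. When EtOH + ABT-888 TRAP was set against Control TRAP, no filter gave 1. Leaving out those libraries, which keeps only mice 6 and 10 of the treated group, gave 3. In total-RNA the single model gave 0 calls for EtOH against Control, and exactTest, DESeq2 and no filter gave 1 each for EtOH + ABT-888 against Control. Leaving out each library in turn gave 20 to 35 calls in Control, 19 to 27 in EtOH and 8 to 18 in EtOH + ABT-888 for TRAP against total-RNA. In the same way, EtOH against Control gave 0 to 8 calls in TRAP and 3 to 16 in total-RNA, EtOH + ABT-888 against Control 0 to 1 and 0 to 4, and the direct comparison with EtOH and both interactions 0 to 0. The lowest counts in TRAP against total-RNA came without the total-RNA libraries of Control mouse 1 (20), EtOH mouse 9 (19) and EtOH + ABT-888 mouse 6 or 11 (8 each; 9 without mouse 3). Counted per gene and fit, leaving out a library lost 26 of 77 calls of the named members for EtOH total-RNA, 9 of 21 for EtOH TRAP and 12 of 64 for TRAP against total-RNA in EtOH + ABT-888. The cause of these shifts was not tested. With 3 Control mice and TRAP libraries as small as 6570957 reads, members at a few CPM were measured with low precision.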

Other observations

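Eef1e1, which encodes a subunit of the multi-tRNA synthetase complex, had lower means than Control in both treatments and both pools without passing. Its TRAP values were 26.3, 21.8 and 29.7 CPM in Control, 15.1, 22.5, 18.1 and 15.98 CPM in EtOH and 16.4, 22.1, 15.5 and 15.7 CPM in EtOH + ABT-888, and a single EtOH library and a single EtOH + ABT-888 library, those of mice 5 and 6, were above the lowest Control value. The log2 fold changes in TRAP were -0.51 ± 0.21 for EtOH and -0.56 ± 0.22 for EtOH + ABT-888 (SE, edgeR adjusted p = 0.171 and 0.331). Eef1akmt1 was lowest in TRAP in EtOH + ABT-888 mouse 10, at 10.9 CPM, and its highest TRAP value, 43.0 CPM, was in mouse 11 of the same group.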
